A study of Mus musculus with 8 samples.

Results

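The genes described here are 3 receptors for fibroblast growth factors (FGFs), Fgfr1, Fgfr2 and Fgfr3, and 7 genes of the feedback that ERK signalling builds on itself, Spry1, Spry2, Spry4, Spred1, Dusp6, Etv4 and Etv5. They were chosen by gene symbol, with earlier results of these data known. Every probe set annotated with the symbol of a member was taken. This gave 10 of the 18193 genes measured and 29 of the 34945 probe sets that carry a single symbol. Total RNA was measured on 8 Affymetrix mouse arrays in 4 groups of 2 arrays. Wild-type (wt) mouse embryonic stem cells (mESCs) of the TC-1 line were compared with Men1-ko, or menin-null, mESCs, and each line was also taken through a protocol for islet-like endocrine cells of the pancreas (PILECs). All 4 groups carry the 129S6/SvEvTac background. Men1 encodes menin, a tumour suppressor that works with histone methyltransferase complexes and is mutated in multiple endocrine neoplasia. The mESCs were grown with leukaemia inhibitory factor on feeder fibroblasts and then brought onto gelatin without feeders, whereas the PILECs went through embryoid bodies, a serum-free step, an expansion step with added FGF and a last step with nicotinamide and no added FGF. Each genotype was a single line, so a difference between genotypes and a difference between lines cannot be told apart, and the medium and the cell type cannot be told apart either. The 2 arrays of a group came from separate cultures. Each p-value rests on the spread between such cultures, pooled over the 4 groups and moderated across genes. It does not measure a spread between lines.

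FGFs bind receptor tyrosine kinases at the cell surface, and the receptors pass the signal through adaptor proteins, Ras and Raf to the kinases MEK and ERK. Active ERK turns on transcription factors of the Etv group and, with them, a set of inhibitors that damp the same pathway: Sprouty proteins (Spry) and Spred1 act near Ras and Raf, and Dusp6 is a phosphatase that removes the activating phosphates from ERK in the cytoplasm. In mESCs the pathway is driven mainly by the cells' own Fgf4 and is known for moving them out of self-renewal towards lineage commitment, and RNAs of the feedback genes are widely read as a sign of pathway output.

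Values are log2 intensities as deposited, and a gene is given by its brightest probe set, averaged over all 8 arrays. Because probe sets bind with different strength, levels were compared between arrays and never between genes. A mean under 7 was not taken as shown to lie above background, so folds that rest on one are approximate. Differences were tested with limma across all 18193 genes, with Benjamini-Hochberg adjusted p, and a gene was called at an adjusted p under 0.05. With 2 arrays in a group an exact permutation test cannot go below p = 0.333, so p-values come from the limma model alone.

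The labels held for the targeted gene. Men1 read 9.90 and 9.97 in wt mESCs, 7.77 and 7.82 in menin-null mESCs, 10.06 and 9.92 in wt PILECs and 7.95 and 8.02 in menin-null PILECs. It was 4.42-fold lower in menin-null mESCs (limma adjusted p = 7.07e-05) and 4.01-fold lower in menin-null PILECs (adjusted p = 7.38e-05). The mean over 9 pluripotency markers lay between 12.7 and 12.8 in all 4 mESC arrays, between 8.93 and 9.12 in wt PILECs and between 8.39 and 8.41 in menin-null PILECs. The mean over 14 islet endocrine markers was 5.95 to 6.15 in mESCs and 6.95 to 7.05 in PILECs. Of the 14, 7 were called higher and 2 lower in wt PILECs, and 9 higher and 1 lower in menin-null PILECs. The shares of all genes were 27.8% higher and 35.3% lower in wt and 28.9% and 36.1% in menin-null cells. The granin genes Chgb and Chga rose by 5.60 and 1.38 on the log2 scale in wt cells and by 5.62 and 1.60 in menin-null cells, and the hormone gene Sst by 2.42 and 1.44. Against the label, the hormone genes Gcg and Iapp and the transcription factor Pdx1 stayed under 7 in every group. The mean of Neurod1 was lower in PILECs than in mESCs, 8.95 against 9.40 in wt and 8.68 against 8.84 in menin-null cells. The hormone gene Ins2 had means of 6.82 and 7.19 in wt and menin-null mESCs and 7.23 and 7.37 in the PILECs. These are array readings of RNA alone. By RT-PCR the study found insulin, glucagon and Iapp transcripts, low to moderate, in differentiated cells of both genotypes. It also reported a rise of NeuroD1 protein and staining for insulin C-peptide in both. The mean over 9 neuron markers was 7.50 to 7.75 in mESCs and 11.7 to 11.9 in PILECs. Of these, 9 were called higher in wt and 8 in menin-null PILECs, and 0 lower. Over 8 fibroblast markers the mean was 6.15 to 6.38 in mESCs and 10.58 to 10.99 in PILECs. Of the 8, 7 were called higher and 1 lower in each genotype. The neuron marker Stmn2 already had means of 12.70 and 13.05 in wt and menin-null mESCs. The fibroblast marker Thy1 fell from 7.29 to 6.29 in wt cells. Because the markers pointed to more than a single cell type, the name PILEC is used below for the culture.

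**Figure D1:**
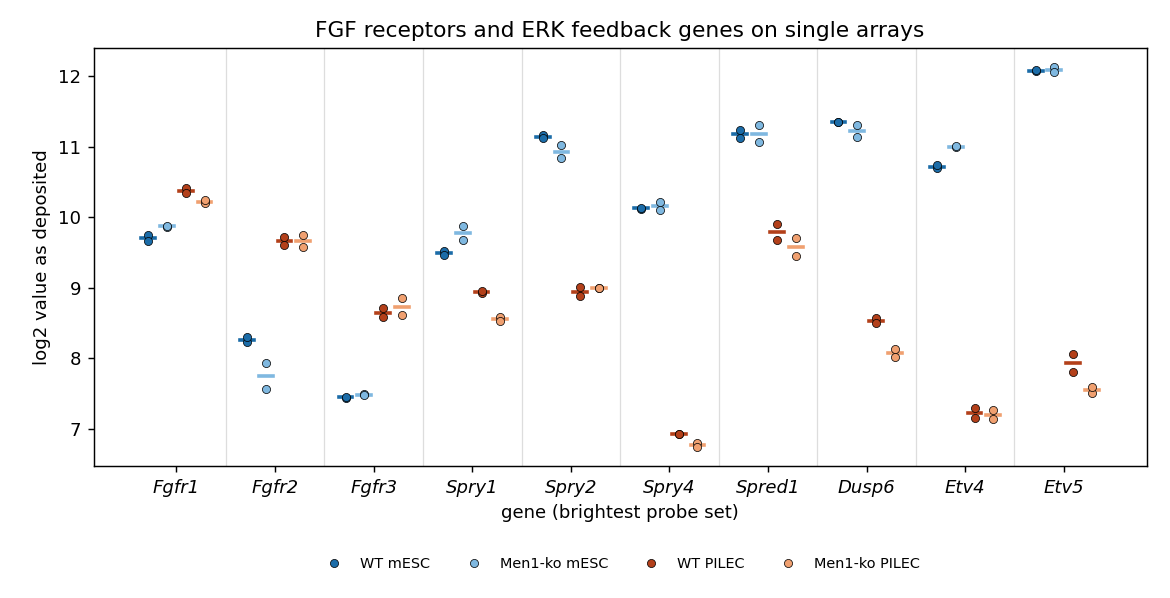
Each point is the log2 value of a single array for the brightest probe set of each of the 10 genes, with 2 arrays in each of the 4 groups and the group marked by colour. The 3 receptors sit higher in the 4 PILEC arrays than in the 4 mESC arrays, and the 7 feedback genes sit lower, with Etv5 falling from 12.08 to 7.94 in the wt means.

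The first question is how the FGF genes stood in differentiated cultures against stem cells. In both genotypes all 10 genes passed the test between PILECs and mESCs, the 3 receptors higher and the 7 feedback genes lower. The extent was wide, from a 1.27-fold higher Fgfr1 to a 23.2-fold lower Etv5, both in menin-null cells. The cell states differ across most of the transcriptome, since 63.1% of all genes were called in wt cells, 27.8% higher and 35.3% lower, and 65% in menin-null cells, 28.9% higher and 36.1% lower. The median log2 difference of the 10 genes, 3 higher and 7 lower, was -1.79 in wt and -1.77 in menin-null cells. Over all genes it was -0.08 and -0.07. The 10 were chosen with earlier results of these data known, so these medians are a description only. The arrays of the cell types did not overlap for any of the 10 genes, which in wt cells held for 36.4% of all genes in the higher and 47.2% in the lower direction, and in menin-null cells for 35.4% and 43.6%. As these are bulk cultures, fewer cells of a type and less RNA per cell cannot be told apart, here and in every comparison below.

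Among the receptors Fgfr2, which binds a broad range of FGFs according to how its transcript is spliced, differed most. It read 8.23 and 8.31 in wt mESCs, 7.56 and 7.94 in menin-null mESCs, 9.72 and 9.60 in wt PILECs and 9.75 and 9.57 in menin-null PILECs. Every PILEC array was above every mESC array, and the mESC pairs were separate as well. Fgfr2 rose by 1.39 on the log2 scale in wt cells (SE 0.134, 2.63-fold, limma adjusted p = 3.19e-05) and by 1.91 in menin-null cells (SE 0.134, 3.76-fold, adjusted p = 4.45e-06). Fgfr3, the receptor known for restraining bone growth, read 7.44 and 7.45 in wt mESCs, 7.49 and 7.48 in menin-null mESCs, 8.71 and 8.58 in wt PILECs and 8.61 and 8.85 in menin-null PILECs. The PILEC arrays of the genotypes overlapped each other and stood clear of the mESCs. The rise was 2.30-fold in wt (adjusted p = 1.48e-05) and 2.37-fold in menin-null cells (adjusted p = 1.11e-05). Fgfr1, the main FGF receptor of mESCs in most accounts, read 9.75 and 9.66 in wt mESCs, 9.87 and 9.88 in menin-null mESCs, 10.41 and 10.34 in wt PILECs and 10.20 and 10.24 in menin-null PILECs. Its rise was the smallest of the 3 receptors, 1.59-fold in wt cells (adjusted p = 0.000112) and 1.27-fold in menin-null cells (adjusted p = 0.0049), and it was seen with its brightest probe set alone. A second Fgfr1 probe set, nearly as bright, differed by 0.10 in wt and -0.20 in menin-null cells, and the dimmest by 0.15 and 0.01, none of them called.

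Spry1, Spry2 and Spry4 all fell. Spry3, a Sprouty gene outside the 10, had means under 7 in every group and was called higher in PILECs, by 0.60 in wt and 0.70 in menin-null cells. Spry4, which inhibits the step from receptor to Ras and Raf, had the largest difference of the 3. It read 10.12 and 10.14 in wt mESCs, 10.22 and 10.11 in menin-null mESCs, 6.92 on both wt PILEC arrays, and 6.80 and 6.74 in menin-null PILECs. The PILEC means fell under 7, so the folds of 9.23 in wt (limma adjusted p = 4.47e-08) and 10.5 in menin-null cells (adjusted p = 3.02e-08) are approximate. Spry2, its close relative and an inhibitor of the same step, read 11.16 and 11.12 in wt mESCs and 11.03 and 10.83 in menin-null mESCs. In PILECs it read 9.003 and 8.88 in wt and 9.003 and 9.002 in menin-null cultures. The fall was 4.58-fold in wt (adjusted p = 3.35e-07) and 3.80-fold in menin-null cells (adjusted p = 5.73e-07). Spry1, the Sprouty gene known for its need in kidney and ureter branching, moved least and by different amounts in the genotypes. It read 9.52 and 9.47 in wt mESCs, 9.87 and 9.67 in menin-null mESCs, 8.92 and 8.95 in wt PILECs and 8.58 and 8.53 in menin-null PILECs, so that the 4 groups did not overlap at all. Its fall was 1.47-fold in wt cells (adjusted p = 0.000781) and 2.32-fold in menin-null cells (adjusted p = 6.37e-06).

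Spred1, which brings the Ras inhibitor neurofibromin to the cell membrane, read 11.12 and 11.24 in wt mESCs, 11.06 and 11.30 in menin-null mESCs, 9.68 and 9.90 in wt PILECs and 9.45 and 9.70 in menin-null PILECs. The genotypes overlapped in each cell type and the cell types did not. It fell 2.62-fold in wt (limma adjusted p = 2.93e-05) and 3.04-fold in menin-null cells (adjusted p = 1.16e-05). Dusp6, the cytoplasmic ERK phosphatase, read 11.34 on both wt mESC arrays, 11.14 and 11.30 in menin-null mESCs, 8.57 and 8.49 in wt PILECs and 8.14 and 8.02 in menin-null PILECs. The 4 groups stood apart, with the widest gap between the cell types. Dusp6 fell by 2.81 on the log2 scale in wt (SE 0.0908, 7.02-fold, adjusted p = 1.04e-07) and by 3.14 in menin-null cells (SE 0.0908, 8.82-fold, adjusted p = 5.85e-08).

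The steepest falls of the 10 genes were in Etv5 and Etv4, ETS-domain transcription factors of the Pea3 group that ERK signalling induces and activates. Etv5 read 12.07 and 12.08 in wt mESCs, 12.13 and 12.05 in menin-null mESCs, 8.07 and 7.81 in wt PILECs and 7.52 and 7.59 in menin-null PILECs. The mESC genotypes were interleaved and the PILEC genotypes were not. Etv5 fell by 4.14 in wt (SE 0.102, 17.6-fold, limma adjusted p = 4.47e-08) and by 4.54 in menin-null cells (SE 0.102, 23.2-fold, adjusted p = 2.89e-08), both on the log2 scale. Etv4 read 10.70 and 10.73 in wt mESCs, 10.99 and 11.01 in menin-null mESCs, 7.15 and 7.29 in wt PILECs and 7.26 and 7.14 in menin-null PILECs. Here the mESC genotypes were separate and the PILEC genotypes overlapped. Etv4 fell 11.3-fold in wt (adjusted p = 4.51e-08) and 13.9-fold in menin-null cells (adjusted p = 2.99e-08), with PILEC means near the level of 7.

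**Figure D2:**
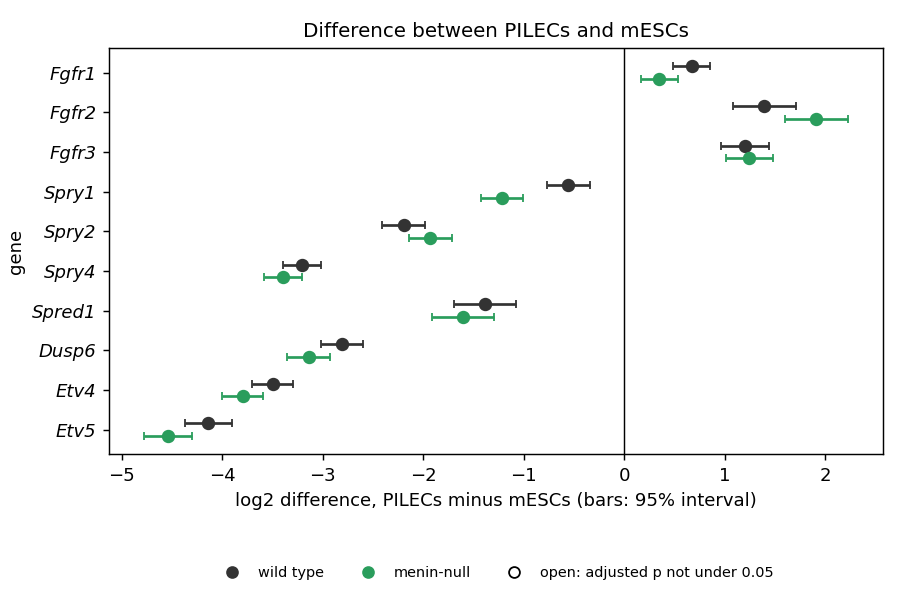
Points give the log2 difference between PILECs and mESCs for each gene in wt and menin-null cells, and bars its 95% interval from the limma model. All 20 intervals lie clear of 0, on the higher side for the 3 receptors and on the lower side for the 7 feedback genes.

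Other probe sets of the same genes gave a second look at the difference between cell types, in a limma fit over the 34945 single-symbol probe sets. They share the arrays, so they are not replicates. Of the genes with more than 1 probe set, Fgfr3, Spry2, Spry4, Etv4 and Etv5 had every probe set called in both genotypes and in the same direction as the brightest. The log2 differences of the 3 Etv5 probe sets were -4.14 to -3.82 in wt and -4.54 to -4.31 in menin-null cells. Those of the 4 Spry4 probe sets were -3.98 to -2.16 in wt and -3.87 to -2.40 in menin-null cells. Etv4's dimmer probe set fell by 1.56 in wt and 1.68 in menin-null cells. Fgfr2 had 2 probe sets called and a dim one, with means under 7 in all groups, that was not. Spred1 had 8 probe sets, all with a lower value in PILECs, of which 3 were called in wt and 5 in menin-null cells. For Spry1 and Dusp6 a single probe set each was present, so no second reading exists here.

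**Figure D3:**
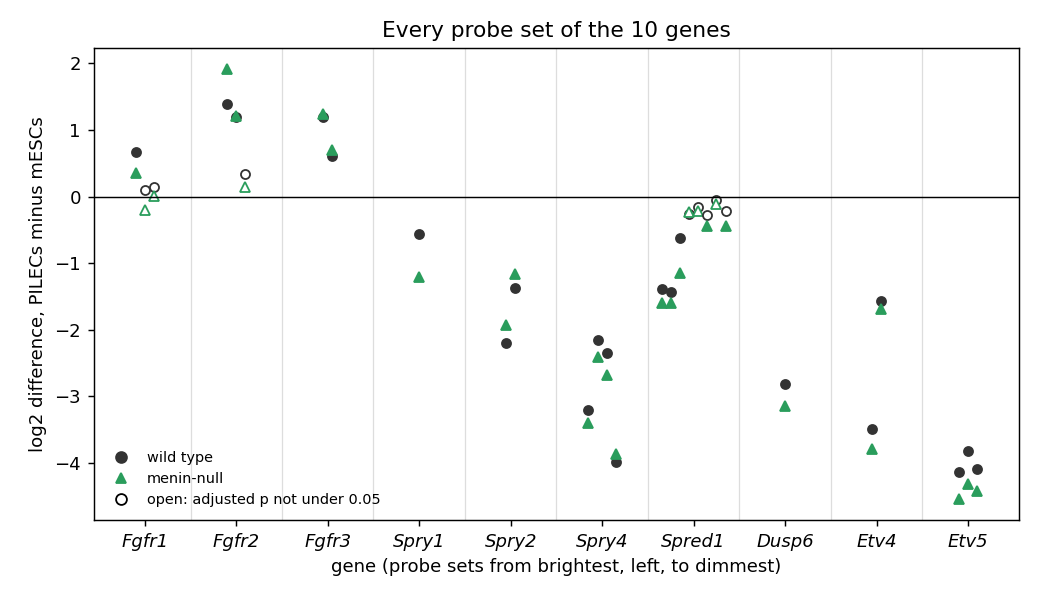
Each symbol is a probe set of the 10 genes, ordered within a gene from brightest to dimmest, and the vertical axis is its log2 difference between PILECs and mESCs in wt cells (circles) and menin-null cells (triangles). Open symbols, not called, are found in Fgfr1, Fgfr2 and Spred1, and the probe sets of the remaining genes are all called.

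The sequences upstream of 3 feedback genes that fell together are shown here because Spry1 and Dusp6 are the genes called between the genotypes in PILECs, as given below, and Etv5 had the largest fall. RefSeq entries on build GRCm38.p6 were found for 7 of the 10 genes, with 9 start sites. The 250 bases before each start were searched on both strands for CCGGAA and GGAAGT, which are strings bound by ETS factors and which share GGAA, and for TGANTCA, the AP-1 string. Each sequence is given 5' to 3' on the gene's strand in lower case, and capitals mark a match. They lie at chr3:37639697-37639946 on the plus strand, chr10:99262981-99263230 on the plus strand, and chr16:22439571-22439820 and chr16:22438369-22438618 on the minus strand for the start sites of Etv5.
Spry1: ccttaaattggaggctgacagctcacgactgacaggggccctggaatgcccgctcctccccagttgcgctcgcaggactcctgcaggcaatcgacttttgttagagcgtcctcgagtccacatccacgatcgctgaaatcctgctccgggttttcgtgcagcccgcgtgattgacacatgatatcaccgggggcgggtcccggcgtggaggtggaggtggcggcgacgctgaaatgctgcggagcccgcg
Dusp6: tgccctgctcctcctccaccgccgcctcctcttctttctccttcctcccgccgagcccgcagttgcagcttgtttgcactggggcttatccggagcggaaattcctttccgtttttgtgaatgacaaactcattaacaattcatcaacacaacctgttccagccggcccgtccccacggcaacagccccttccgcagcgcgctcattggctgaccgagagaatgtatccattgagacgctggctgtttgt
Etv5, start site 1: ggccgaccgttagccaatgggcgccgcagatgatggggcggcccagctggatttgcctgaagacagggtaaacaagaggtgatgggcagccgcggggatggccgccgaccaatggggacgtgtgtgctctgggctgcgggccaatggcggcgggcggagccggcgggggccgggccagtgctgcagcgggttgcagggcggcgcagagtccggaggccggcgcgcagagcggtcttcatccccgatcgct
Etv5, start site 2: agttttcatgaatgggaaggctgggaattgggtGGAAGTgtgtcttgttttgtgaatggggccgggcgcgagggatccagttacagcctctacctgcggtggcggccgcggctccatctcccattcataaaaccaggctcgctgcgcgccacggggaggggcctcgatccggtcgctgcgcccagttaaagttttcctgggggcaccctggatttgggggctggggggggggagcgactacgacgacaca
The only match in the 9 promoters was GGAAGT, 217 bases before the second start site of Etv5. Of 32851 mouse promoters of that length, 27.1% held either ETS string and 6.75% the AP-1 string, and none of the 9 held the latter. These counts are a description of the letters in this window and say nothing on binding.

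The second question is how the menin-null line differed from the wt line within each cell type. In mESCs none of the 10 genes was called between menin-null and wt cells by limma, where 3.64% of all genes were, 1.29% higher and 2.36% lower, and 3 of the 10 (Fgfr2, Spry1 and Etv4) had an unadjusted p under 0.05, as did 18.5% of all genes. The largest difference was in Fgfr2, -0.51 on the log2 scale (95% interval -0.83 to -0.20, adjusted p = 0.0893), with the menin-null arrays 7.56 and 7.94 below the wt arrays 8.23 and 8.31. Its second bright probe set differed by -0.15. Etv4 differed by 0.28 (0.08 to 0.49, adjusted p = 0.138) and Spry1 by 0.28 (0.07 to 0.49, adjusted p = 0.154), both with higher values in menin-null mESCs on all arrays. For Spred1, Etv5, Spry4 and Fgfr3 the differences lay between 0.00455 and 0.04, with intervals that reached no further than -0.30 and 0.31. Dusp6 differed by -0.12 (-0.33 to 0.09) and Spry2 by -0.21 (-0.43 to 0.01), both without a call. The arrays of the genotypes did not overlap for 4 genes in the higher direction (Fgfr1, Fgfr3, Spry1, Etv4) and for 3 in the lower (Fgfr2, Spry2, Dusp6), where 24.1% and 24.9% of all genes did the same.

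**Figure D4:**
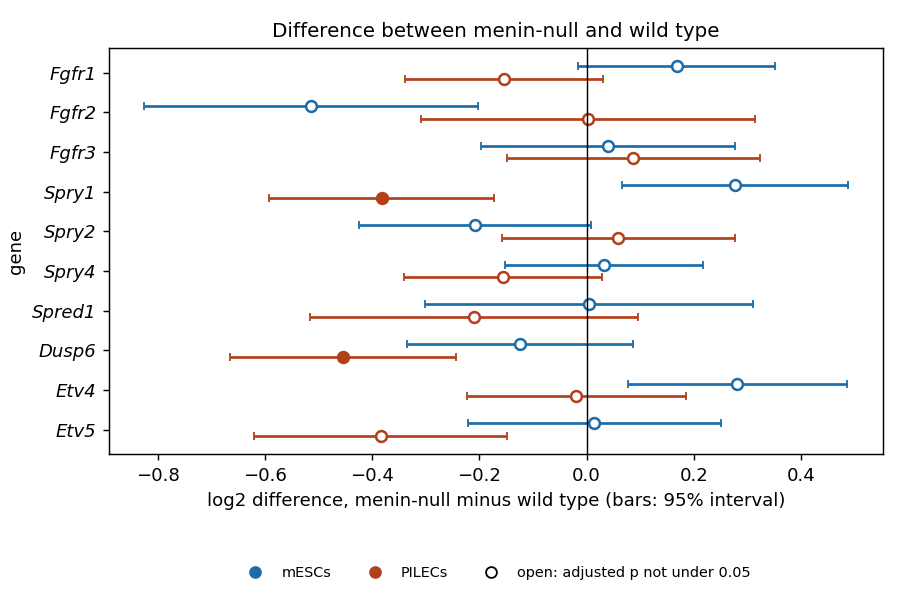
Points give the log2 difference between menin-null and wt cells for each gene in mESCs and in PILECs, and bars its 95% interval from the limma model. In PILECs the points of Spry1, Dusp6 and Etv5 lie at -0.38, -0.45 and -0.38, and those of Spry1 and Dusp6 are the called ones.

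In PILECs, RNA of a pair of feedback genes was lower in the menin-null line. Dusp6 was 1.37-fold lower in menin-null than in wt PILECs (log2 difference -0.45, SE 0.0908, limma adjusted p = 0.0292), with 8.14 and 8.02 against 8.57 and 8.49. Spry1 was 1.30-fold lower (log2 difference -0.38, SE 0.0908, adjusted p = 0.0488), with 8.58 and 8.53 against 8.92 and 8.95. These were 2 of the 10 genes, where 6.68% of all genes were called, 2.26% higher and 4.42% lower. Neither of them has a second probe set. Etv5 differed by a like amount, -0.38 (adjusted p = 0.0676), and its other probe sets by -0.40 and -0.36, with no call. It was called, together with Dusp6 and Spry1, with a filter on genes under a mean of 7 and with a trended, robust prior. The genotypes' arrays were separate for 5 genes, all lower in menin-null PILECs (Fgfr1, Spry1, Spry4, Dusp6, Etv5), where 30% of all genes did so in that direction and 24.7% in the other. Of the genes that were not called, Spred1 differed by -0.21, Spry4 by -0.16, Fgfr1 by -0.15, Etv4 by -0.019, Fgfr2 by 0.00303, Spry2 by 0.06 and Fgfr3 by 0.09. The median over the 10 genes was -0.16, against -0.01 over all genes, a description only, since the 10 were chosen with earlier results known.

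Both calls were near the threshold and depended on how the model was fitted. Each was lost when any 1 of the 4 PILEC arrays or either wt mESC array was left out, and both were lost with the replicate number as a block (adjusted p = 0.0574 for Dusp6 and 0.0736 for Spry1). The log2 difference kept its sign and stayed between -0.51 and -0.40 for Dusp6 and between -0.41 and -0.34 for Spry1 in every setting run.

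Markers of some other cell types moved with genotype in the PILECs as well, where 2.26% of all genes were called higher and 4.42% lower. Of 9 pluripotency markers, 6 were called lower in menin-null PILECs, and their array means ran from 8.93 to 9.12 in wt and from 8.39 to 8.41 in menin-null cultures. Over 6 striated muscle markers the means were 9.07 and 9.41 in wt against 7.51 and 7.82 in menin-null cultures, and 5 of the 6 were called lower. Endoderm markers averaged 7.13 and 7.17 in wt against 7.69 and 7.76 in menin-null cultures, with 4 of 9 called higher and 1 lower. Fat cell markers, 2 in number, averaged 7.54 to 7.83 in wt and 5.75 to 5.84 in menin-null cultures. Other lists moved little. None of 14 islet endocrine and none of 4 endothelium markers was called. Of 9 neuron markers 1 was called higher, of 6 glia markers 1 higher, and of 8 fibroblast markers 1 higher and 2 lower. The part of any of these cell types in the Dusp6 and Spry1 results was not tested.

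Whether the difference between the lines varied with cell type was tested with the interaction, the difference in PILECs minus that in mESCs. Spry1 was the gene called, with an interaction of -0.66 on the log2 scale (SE 0.128, 1.58-fold, limma adjusted p = 0.0414), where 3.06% of all genes were called, 1.5% higher and 1.57% lower. The genotype difference behind it was 0.28 in mESCs and -0.38 in PILECs. Among the 10 genes, 6 had an unadjusted p under 0.05, as did 18.7% of all genes. The interaction was -0.33 for Dusp6 (adjusted p = 0.220), 0.52 for Fgfr2 (adjusted p = 0.195), -0.40 for Etv5 (adjusted p = 0.187), -0.32 for Fgfr1 (adjusted p = 0.175) and -0.30 for Etv4 (adjusted p = 0.250), with intervals that did not reach 0 before adjustment. The call of Spry1 was lost with the replicate block (adjusted p = 0.0680) and in other settings given in the closing section, and the interaction stayed between -0.76 and -0.56.

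The rest of the FGF and ERK pathway was divided into lists by role, and their counts stand against the all-gene shares of 27.8% higher and 35.3% lower in wt and 28.9% higher and 36.1% lower in menin-null cells. Among 22 FGF ligands, 6 were higher and 7 lower in PILECs of the wt line, and 6 higher and 6 lower in the menin-null line. These counts are close to those shares, and the list medians were -0.11 and -0.12 on the log2 scale. Only 10 of the 22 had a mean of at least 7 in any group. The counts therefore include ligands not shown to lie above background. Fgf4, the ligand that mESCs themselves secrete, had the largest change of all the pathway genes. It read 12.29 and 12.27 in wt mESCs, 12.34 and 12.41 in menin-null mESCs, 6.30 and 6.16 in wt PILECs and 5.99 and 5.62 in menin-null PILECs. The PILEC means are under 7, and the folds of 66.3 and 94.7 are therefore approximate. Fgf17, of the Fgf8 subfamily, fell by 4.07 in wt and 4.45 in menin-null cells, on the log2 scale and to means under 7. Fgf11, Fgf12 and Fgf13, which belong to the FGF homologous factors that stay inside the cell and bind sodium channels, rose by 3.18, 2.34 and 2.16 in wt and by 2.85, 2.84 and 2.76 in menin-null cells, sizes that are approximate for Fgf11 and Fgf12, whose mESC means were under 7.

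Against the same all-gene shares, 27.8% higher and 35.3% lower in wt and 28.9% and 36.1% in menin-null cells, 4 of 11 other receptors and co-receptors were higher and 3 lower in PILECs in both genotypes. Flrt2 and Flrt3, transmembrane proteins that bind FGF receptors and act in cell adhesion, rose by 3.67 and 2.91 in wt and by 3.46 and 3.08 in menin-null cells, and Gpc3, a heparan sulphate proteoglycan, by 2.10 in each. The mESC means of Flrt2 were under 7, so its sizes are approximate. In the relay from receptor to ERK, 14 of the 21 genes listed were measured, 8 of them higher and 4 lower in both genotypes. The adaptor gene Gab1 fell by 2.22 in wt and 2.20 in menin-null cells. In the list of other ERK feedback and target genes, 22 measured, 7 were higher and 10 lower in wt and 7 and 11 in menin-null cells. This list and the 7 feedback genes were chosen with earlier results of these data known. Their counts are therefore not compared. Dusp9, a phosphatase of ERK, fell by 2.53 and 3.10, and Myc, a growth-promoting transcription factor, by 2.20 and 2.16. The menin-null PILEC mean of Dusp9 was 6.82, under 7, so its size there is approximate. Over the alternatives the Dusp9 difference ranged from -5.20 to -2.35 in wt and from -5.10 to -2.96 in menin-null cells.

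Of the 69 genes in these lists, 4 were called for genotype in mESCs and 4 in PILECs, all lower. Of all genes, 2.36% and 4.42% were called lower, and 1.29% and 2.26% higher. In mESCs these were Gpc4, which differed by -0.88 on the log2 scale (limma adjusted p = 0.0187), Klb by -0.60 (adjusted p = 0.0121), Sdc4 by -0.49 (adjusted p = 0.0222) and Fgf8 by -0.46 (adjusted p = 0.0305), with Fgf8 under 7 in every group. All 4 calls were lost when either wt mESC array was left out, with adjusted p up to 0.140 for Gpc4, 0.124 for Klb, 0.163 for Sdc4 and 0.213 for Fgf8. Klb encodes a co-receptor for endocrine FGFs, and Gpc4 and Sdc4 encode cell surface proteoglycans. A second, dim probe set of Klb differed by 0.36, and the call of Klb was also lost when its probe sets were averaged (adjusted p = 0.527). In PILECs Fos, Il17rd, Fgf15 and Egr1 were lower in the menin-null line. None of the 69 was called higher, which is close to the 2.26% called higher over all genes. Fos and Egr1 are immediate early genes that ERK induces, and Il17rd, also called Sef, is a membrane inhibitor of FGF signalling. Il17rd read 9.58 and 9.52 in wt mESCs, 9.48 and 9.56 in menin-null mESCs, 8.32 and 8.39 in wt PILECs and 7.43 and 7.27 in menin-null PILECs. The log2 difference in PILECs was -1.001 (SE 0.0893, adjusted p = 0.00201), with no overlap. Fos differed by -1.003 (adjusted p = 0.0304). Fgf15, an endocrine FGF in adults, differed by -0.89 (adjusted p = 0.00445) and Egr1 by -0.79 (adjusted p = 0.0204). The call of Fos was lost without any 1 of the PILEC or wt mESC arrays (adjusted p up to 0.184), and that of Egr1 without either wt PILEC array or menin-null PILEC array 2 (adjusted p up to 0.153). A second, dim probe set of Il17rd, with PILEC means of 5.98 and 6.03, differed by 0.05, and when the probe sets of a gene were averaged the call of Il17rd was lost (adjusted p = 0.0578).

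**Figure D5:**
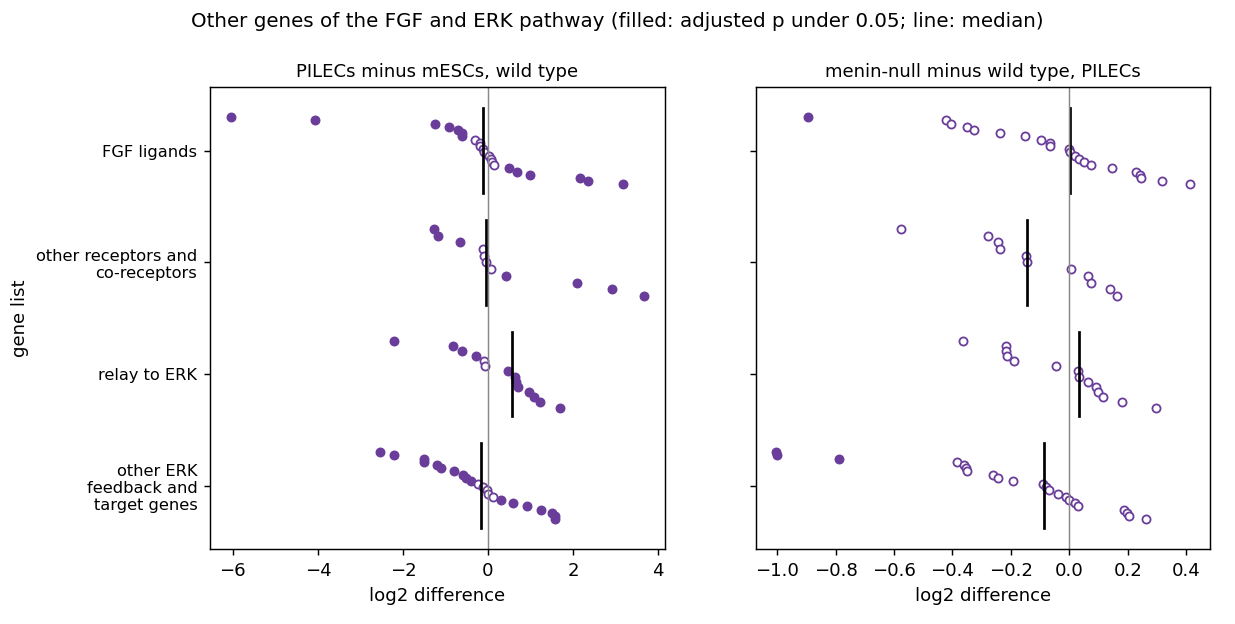
Each circle is a gene of the 4 pathway lists, placed by its log2 difference between PILECs and mESCs in wt cells (left) or between menin-null and wt PILECs (right), filled where called, with a line at the list median. In the left panel called genes lie on both sides of 0 in all 4 lists, and in the right panel the called genes are Fgf15 and 3 of the other ERK feedback and target genes, all below 0.

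Genes whose pattern over the 8 arrays was nearest to the 3 members with the widest range were named from 5586 candidates by Pearson correlation. They were Emc8, Cdh1 and Gtsf1l for Etv5, Pla2g10, Def6 and Tcf15 for Etv4, and Klf5, Xab2 and Nodal for Spry4, with r from 0.999426 to 0.999866. The arrays form 2 clusters by cell type, so r mainly records that gap and is given as a description.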

How the data were processed

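RNA from 8 cultures, 2 per group, was labelled with biotin as cRNA from 6 ug of total RNA and hybridised to 8 Affymetrix mouse expression arrays, 1 sample each. The values used here are the log2 expression values that the authors deposited, 1 column per array. Per the submitters' processing notes they were made with RMA and Partek, while the study's methods name Affymetrix MAS 5.0; versions are not given in the sources used here. The number of arrays limits the precision.

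Of 45101 probe sets, 64 control probe sets, 9160 without a symbol and 932 with several were left out. The 34945 with 1 symbol gave 18193 genes, and 9010 genes had more than 1 probe set. The brightest probe set on average stood for each gene. Groups were taken from GEO's labels. The model had 1 mean per group and was fitted with limma 3.58.1 in R 4.3.3 over all genes, with empirical Bayes moderation and Benjamini-Hochberg adjustment, and 5 contrasts were taken from it: genotype in each cell type, cell type in each genotype, and their interaction. The scripts were tested on simulated data. Alternatives were quantile normalisation again, a filter on low values, other ways to choose a probe set, a replicate block, other ways to moderate the variances, and leaving out each array. The members and lists were chosen with earlier results of these data known. From the lists the text names every gene called for genotype or interaction and the 6 largest differences in each direction called in both genotypes.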

Additional observations from a re-analysis of the deposited data

Results flagged for a closer look

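By the limma interaction test, the difference between the menin-null and wt lines varied with cell type for 3 genes. They were 1 of the 10 genes and 2 of the 69 in the lists, where 3.06% of all genes were called. Each is named here because it passed this test. Spry1 had an interaction of -0.66 on the log2 scale (adjusted p = 0.0414), with menin-null values higher on both mESC arrays and lower on both PILEC arrays. The call of Spry1 was lost in 12 of 18 alternatives. Il17rd had -0.97 (adjusted p = 0.0128), seen with its brighter probe set and not with its dimmer one. The call of Il17rd was lost in 7 of 17 alternatives, among them the omission of any wt array. Klb had 0.68 (adjusted p = 0.0285), with PILEC means under 7 in both genotypes. Its dimmer probe set had an interaction of -0.45 with no call, and the call of Klb was lost in 10 of 16 alternatives, among them the mean of its probe sets (0.11, adjusted p = 0.705).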

How the results depend on the processing

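Over 19 alternatives at most per result, 870 of 940 recomputed differences of the 10 genes kept direction and side of the threshold, 43 lost and 5 gained a call and 22 changed sign. The differences between cell types had 8 to 10 genes called in every setting, and Fgfr1 in menin-null cells was -0.20 with its next brightest probe set, an alternative chosen after seeing the data. In mESCs 1 gene (Fgfr2) was called without menin-null mESC array 2 or with a trended, robust prior. In PILECs 1 gene (Dusp6) was called after quantile normalisation, with the 2 groups' arrays alone, without probe sets named s, x or a and with all probe sets tested, and 0 with the replicate block, without moderation or at 2-fold with unadjusted p under 0.005, while 3 (Etv5 added) were called with the filter on means under 7 and with the trended, robust prior. The interaction had 0 calls after quantile normalisation, with the replicate block, without moderation, with all probe sets tested and at 2-fold. Leaving out arrays in turn gave 0 to 1 calls in mESCs, 0 to 2 in PILECs and 0 to 2 for the interaction, the highest (Fgfr2 and Spry1) without menin-null mESC array 2. The pathway lists held 108 calls over the 5 contrasts, 94 to 107 with an array left out and 52 at 2-fold. Most of these are between cell types, and with an array left out the list calls ranged from 0 to 7 in mESCs (4 as reported), 2 to 5 in PILECs (4) and 0 to 3 for the interaction (2). Over all genes the calls ranged from 12 to 1430 in mESCs (663 as reported), 143 to 2348 in PILECs (1216) and 47 to 1402 for the interaction (557). Same-numbered arrays had residual correlations of -0.28 to 0.21, so the numbers were not taken to pair the samples.

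With arrays left out in turn, small log2 differences crossed 0. In mESCs Spred1 ranged from -0.12 to 0.12, Spry4 from -0.023 to 0.086 and Etv5 from -0.023 to 0.053. In PILECs Fgfr2 ranged from -0.087 to 0.094, Spry2 from -0.00077 to 0.12, Etv4 from -0.092 to 0.054 and Fgfr3 from -0.036 to 0.21, and the Fgfr3 interaction from -0.076 to 0.17. With the mean of all probe sets, Spry4 was -0.026 in mESCs, and Fgfr2 was -0.051 and Etv4 0.040 in PILECs. Without probe sets named s, x or a, Fgfr2 was 0.17 in mESCs and -0.021 in PILECs, with an interaction of -0.19. With the next brightest probe set, Spry2 was 0.032 in mESCs, and Fgfr2 was -0.14 and Etv4 0.099 in PILECs. None of these was called, and the cause was not tested. Signal limits Spry4 in PILECs, where its means lie under 7.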
